A study of Homo sapiens with 3 samples.

Results

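Depletion of Arkadia by small interfering RNA (siRNA) was compared with a control siRNA in HEK293T cells, a human embryonic kidney line that carries the SV40 large T antigen. The members of this comparison were the genes with the status OK in every library and an FPKM that averaged 1 or more across the series. FPKM is a read count corrected for transcript length and for the depth of the library. By this rule 11975 of the 23284 genes in the deposited table were members, and the 11870 of them with an isoform of at least 300 nt were compared. The rule does not make each value reliable: of the 11870, 5 were listed at 0 in control and 3 at 0 under Arkadia siRNA. The series holds 3 libraries of polyadenylated RNA from this line, under control siRNA, Arkadia siRNA or ESRP2 siRNA, all without added TGF-beta. Cells were reverse transfected with a lipid reagent and harvested 48 h after seeding, and the libraries were read on an Ion Torrent semiconductor sequencer. Each group is 1 library, so no difference below has a replicate check and none is given a p-value. In such bulk samples fewer cells of a type and less RNA per cell cannot be told apart. The number of independent cultures behind a library is not given in the sources used here.

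Arkadia, encoded by RNF111, is a RING-type E3 ubiquitin ligase that promotes signalling by the TGF-beta family: it marks the transcriptional repressors SKI and SKIL (SnoN) and the inhibitory SMAD7 for degradation, and it also recognises proteins that carry SUMO chains. TGF-beta, activin and BMP ligands bind pairs of serine/threonine kinase receptors, which phosphorylate receptor SMADs that enter the nucleus with SMAD4 and switch target genes on or off. ESRP2 is an epithelial splicing regulator that binds RNA and sets the inclusion of cassette exons, and Arkadia has been linked to its ubiquitylation. The libraries measure RNA, so changes in the stability of a substrate protein lie outside them.

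Differences are given as the log2 ratio of FPKM + 1 in the Arkadia siRNA library over FPKM + 1 in the control library. A positive value means more RNA after Arkadia siRNA, and the added 1 understates changes of weakly expressed genes. Where FPKMs are given in pairs, control comes before Arkadia siRNA, and any further value is the ESRP2 siRNA library. Over all genes compared the median was -0.02. With Arkadia siRNA 199 genes (1.68%) were at least 2-fold higher and 266 (2.24%) at least 2-fold lower. At 1.5-fold the counts were 1165 higher (9.81%) and 1396 lower (11.8%). Gene lists below are called at 1.5-fold, and these shares over all genes compared are the background for their counts. The authors' confidence limits for the 2 libraries did not overlap for 23 of the genes 2-fold higher (0.194% of those compared) and 29 of the genes 2-fold lower (0.244%). Those limits are wide, with a median of 52.3% of the FPKM on each side in control genes of FPKM 5 or more, and they come from a model fitted without replicates. The steps of single reads in genes with 1 isoform put the depth at about 12300000 reads for control, 9200000 for Arkadia siRNA and 12700000 for ESRP2 siRNA.

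The ratio moved with base composition. In the decile of genes with the lowest transcript GC content (median 37.5%) the median log2 ratio was -0.46, and in the upper 2 deciles (median GC contents of 60.4% and 64.4%) it was 0.34. Across 11760 genes the Spearman correlation of GC content and log2 ratio was 0.564, as a description of these libraries whose genes are not independent. Transcript length had a weaker relation (-0.203 over 11870 genes). The part of GC content in any single difference was not tested, so the value left after subtracting the median of the gene's GC decile is printed as the GC-adjusted value beside many genes and, for every list of 10 or more genes, in the plot of list medians.

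**Figure D1:**
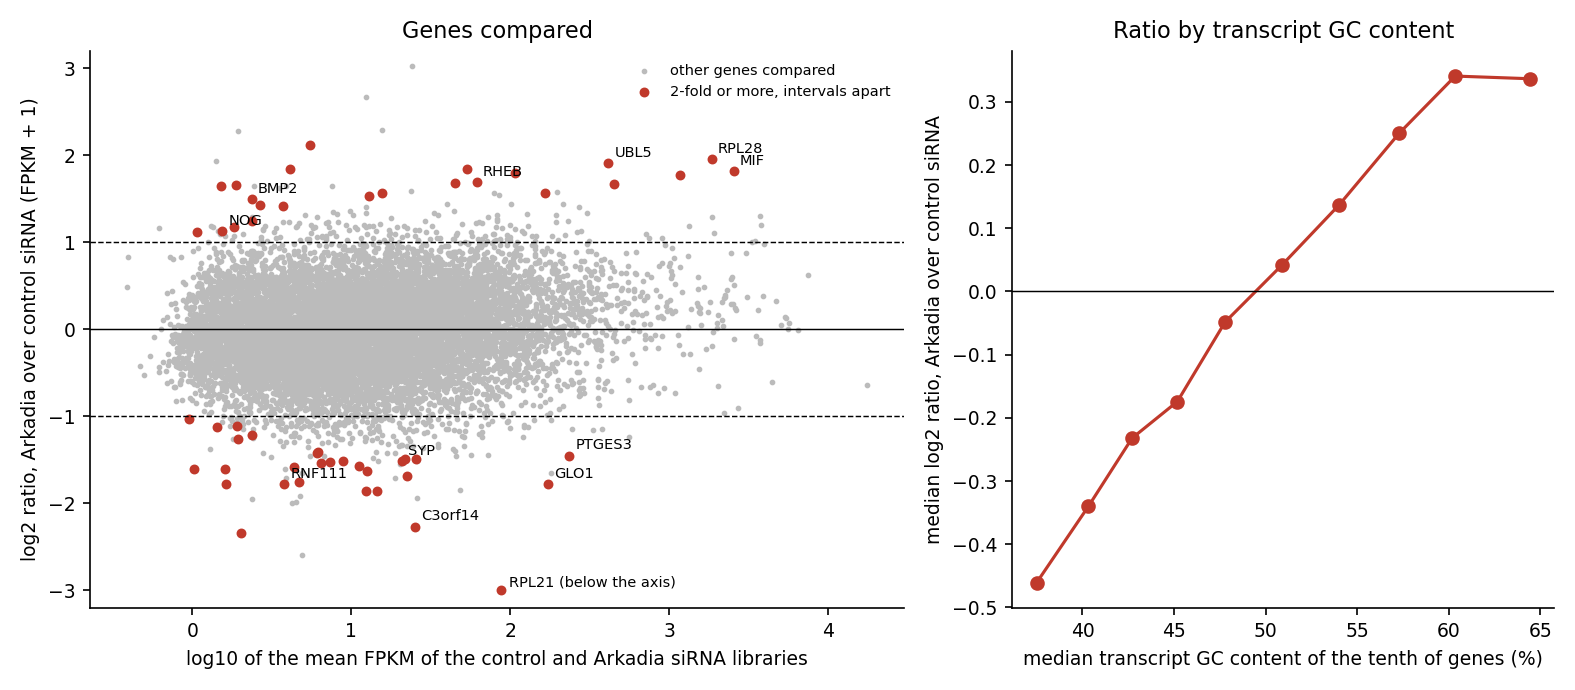
Left, each point is 1 of the 11870 genes compared, with the log10 mean FPKM of the control and Arkadia siRNA libraries on the horizontal axis and the log2 ratio of Arkadia over control siRNA (FPKM + 1) on the vertical axis; red points are the 52 genes past 2-fold (dashed lines) whose deposited limits do not overlap. Right, the median log2 ratio of each decile of genes ordered by transcript GC content, which runs from -0.46 at a GC content of 37.5% to 0.34 at 60.4%.

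The targeted gene was lower in the library labelled Arkadia siRNA. RNF111 (hg19 chr15:59279865-59389253, 1 annotated isoform of 5537 nt) had an FPKM of 6.38 under control siRNA, 1.15 under Arkadia siRNA and 7.65 under ESRP2 siRNA. Only the Arkadia siRNA library was low, at 81.9% below control. The deposited limits, 3.15 to 9.59 in the control library and 0.50 to 1.82 in the Arkadia siRNA library, did not overlap. In reads this is roughly 433 against 59 fragments over the transcript. The log2 ratio was -1.78, and -1.54 after GC adjustment. The related gene C18orf25, which lacks the RING domain, had an FPKM of 4.28 in the control library and 2.998 in the Arkadia siRNA library, within 1.5-fold. RNF165, the RING-containing paralog, was below the level filter at 0.592 and 0.853.

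Of the 6 genes encoding known Arkadia substrates, all were compared and 1 was past 1.5-fold. SKI, the co-repressor that binds SMAD complexes, had an FPKM of 19.6 in the control library and 7.51 in the Arkadia siRNA library, and 12.4 under ESRP2 siRNA. Its log2 ratio of -1.27 (-1.62 GC-adjusted) was the lowest of the group, although the deposited limits overlapped (9.996 to 29.2 in the control library and 3.705 to 11.3 in the Arkadia siRNA library). SKIL, the paralogous co-repressor, had 2.06 in the control library and 1.199 in the Arkadia siRNA library and a log2 ratio of -0.48, which was -0.02 after GC adjustment. The inhibitory SMAD gene SMAD7 stood at 4.18 in the control library and 6.53 in the Arkadia siRNA library (log2 0.54, GC-adjusted 0.29). AXIN1, the scaffold of the beta-catenin destruction complex, stood at 17.7 in the control library and 26.3 in the Arkadia siRNA library (log2 0.55, GC-adjusted 0.21). PML, which forms SUMO-rich nuclear bodies, and XPC, the DNA damage sensor of nucleotide excision repair, were close to control at log2 0.01 and 0.16.

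The genes for Arkadia's biochemical partners (SUMO proteins, PIAS ligases, E2 enzymes, AP2 adaptor subunits and ESRPs) passed 1.5-fold about as often as other genes. Of 25 compared, 1 was higher (4%) and 4 were lower (16%), against 9.81% and 11.8% of all genes compared, and the median was 0.14, or 0.02 GC-adjusted. AP2M1, the mu subunit of the clathrin adaptor AP2, had an FPKM of 232 in the control library and 353 in the Arkadia siRNA library (log2 0.61, within 1.5-fold at 0.47 after GC adjustment). The other adaptor genes lay above control by less, with log2 ratios of 0.55 for AP2A2, 0.5 for AP2A1, 0.38 for AP2S1 and 0.21 for AP2B1. UBE2N, the E2 enzyme that builds lysine-63 chains, had an FPKM of 94.04 in the control library and 49.1 in the Arkadia siRNA library (log2 -0.92, GC-adjusted -0.69). Its non-catalytic partner UBE2V2 (-0.72), the E2 gene UBE2D1 (-0.61) and the SUMO ligase gene PIAS2 (-0.66) were past 1.5-fold lower, and each came within 1.5-fold after GC adjustment, at -0.26, -0.15 and -0.2. In the ESRP2 siRNA library these 3 stood above control, with FPKMs of 156, 20.7 and 13.3 against control values of 48.97, 9.56 and 7.66.

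Among the remaining partners, the E2 genes UBE2D2, UBE2E3 and UBE2D3 had log2 ratios between -0.54 and -0.45. PIAS1, PIAS3, PIAS4, UBE2V1, UBE2D4, UBE2E1, SUMO2 and SUMO3 lay between -0.32 and 0.24. RNF4, the other well-known ligase that recognises SUMO chains, stood at 42.1 in the control library and 55.8 in the Arkadia siRNA library (log2 0.4), and UBE2E2 at 25.2 in the control library and 33.5 in the Arkadia siRNA library (log2 0.4, and 0.63 after GC adjustment, which passes 1.5-fold). ESRP2 itself had an FPKM of 14.8 under control siRNA, 21.2 under Arkadia siRNA and 4.27 with its own siRNA. It was thus not lower after Arkadia siRNA (log2 0.5, GC-adjusted 0.16). ESRP1 was at 0.116 and 0.123, below the level filter.

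Of 39 ligand and ligand-antagonist genes, 15 were compared, of which 2 were higher, 1 was lower and the median was 0.03. BMP2, a ligand of the BMP branch, had an FPKM of 0.7605 under control siRNA, 3.97 under Arkadia siRNA and 0.632 under ESRP2 siRNA. The Arkadia siRNA library alone was high, and the deposited limits (0.3196 to 1.23 in the control library and 1.89 to 6.05 in the Arkadia siRNA library) did not overlap. BMP2 passed the level filter only through the Arkadia siRNA library, so its count among the higher genes follows in part from the filter. The difference was 5.22-fold in FPKM, about 29 against 116 fragments, with a log2 ratio of 1.5 (1.45 GC-adjusted). NOG, which encodes the secreted BMP antagonist Noggin, stood at 0.594 under control siRNA, 2.49 under Arkadia siRNA and 1.94 under ESRP2 siRNA. Both siRNA libraries were above control here. Its limits also did not overlap (0.222 to 0.976 in the control library and 1.06 to 3.902 in the Arkadia siRNA library), at log2 1.13 (0.79 GC-adjusted) and about 14 against 44 fragments.

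BMP4, another BMP ligand, was lower at 19.4 in the control library and 12.1 in the Arkadia siRNA library (log2 -0.63), and its ESRP2 siRNA value was 11.97. BMP7 stood at 19.4 in the control library and 23.1 in the Arkadia siRNA library, so BMP2, BMP4 and BMP7 were not on 1 side of control. TGFB1 was nearly equal at 17.9 and 18.3. TGFB3, GDF11, BMP6 and BMP8B had log2 ratios between -0.16 and -0.01, and BMP1, the protease that matures several of these factors, 0.18. The latent TGF-beta binding genes were at -0.32 (LTBP4), 0.02 (LTBP1) and 0.3 (LTBP3). The follistatin relatives FSTL1 (30.3 and 43.4) and FSTL3 (1.07 and 1.91) stood at log2 0.5 and 0.49. The other 24 did not reach the filter. TGFB2, NODAL, INHBA and GDF15 were below an FPKM of 1 in both libraries, and the antagonist CHRD was at 0.699 and 1.299.

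Of 18 receptor and co-receptor genes 12 were compared, of which 0 were past 1.5-fold higher and 1 (8.33%) was past 1.5-fold lower, against 9.81% and 11.8% of all genes. The median of -0.11 was -0.01 after GC adjustment. The gene past the threshold was BMPR1A, a type I BMP receptor, with an FPKM of 9.08 in the control library and 5.71 in the Arkadia siRNA library (log2 -0.59, GC-adjusted -0.25). TGFBR1 and TGFBR2, the receptors for TGF-beta, had 6.16 and 5.89 under control siRNA and 4.08 and 3.86 under Arkadia siRNA. Their log2 ratios were -0.5 and -0.5, and GC adjustment took the first to -0.04 and the second to -0.46. ACVR1, a type I receptor for BMPs and activin, lay in the other direction at 4.61 in the control library and 7.401 in the Arkadia siRNA library (log2 0.58, just inside 1.5-fold, and 0.76 after GC adjustment, which passes it). ACVR1B, the activin type I receptor, was at log2 0.41, the decoy receptor BAMBI at 0.32 and the co-receptor RGMA at 0.09. BMPR2, ACVR2A, ACVR2B, RGMB and TGFBR3 lay between -0.45 and -0.09.

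None of the 8 SMAD genes was past 1.5-fold, and their median was -0.13, or 0.05 GC-adjusted. SMAD1, which carries BMP signals, was the lowest at 8.495 in the control library and 5.41 in the Arkadia siRNA library (log2 -0.57, and -0.61 after GC adjustment, which passes 1.5-fold). SMAD2 and SMAD3, which carry TGF-beta and activin signals, had 2.42 and 6.47 under control siRNA and 2.23 and 5.17 under Arkadia siRNA. The common partner SMAD4 stood at 5.33 and 4.62, SMAD5 at 8.85 and 8.34, and SMAD9 at 3.29 and 2.16. The inhibitory genes SMAD6 and SMAD7 were the only members above control, with log2 ratios of 0.27 and 0.54. For SMAD6 the ESRP2 siRNA library was far lower, at 1.35 against 5.99 in control, and its GC-adjusted ratio under Arkadia siRNA was -0.06.

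Of 27 SMAD regulators compared, 4 were higher (14.8%), 5 were lower (18.5%) and the median was 0.02. STUB1 (CHIP), a chaperone-linked ubiquitin ligase, had an FPKM of 207 in the control library and 420.1 in the Arkadia siRNA library (log2 1.02, GC-adjusted 0.68). The deubiquitylase gene USP4 stood at 9.27 in the control library and 15.98 in the Arkadia siRNA library (log2 0.73), WWP2 at 11.99 in the control library and 19.8 in the Arkadia siRNA library (0.68) and NEDD4L at 2.65 in the control library and 4.48 in the Arkadia siRNA library (0.59). The last 2 are HECT-type ligases of SMADs and receptors. GC adjustment left USP4 at 0.68 and took WWP2 and NEDD4L within 1.5-fold (0.43 and 0.54). On the lower side, beside SKI, stood the deubiquitylase gene USP15 (10.2 and 5.21, log2 -0.86) and the HECT ligase gene WWP1 (12.4 and 7.28, -0.69). FKBP1A, whose product holds type I receptors inactive, had an FPKM of 278 in the control library and 177 in the Arkadia siRNA library (-0.65), and ZFYVE16, an endosomal SMAD anchor, 5.48 in the control library and 3.26 in the Arkadia siRNA library (-0.61). After GC adjustment USP15, WWP1 and ZFYVE16 came within 1.5-fold (-0.39, -0.23 and -0.15), and FKBP1A stayed at -0.61. The classical SMAD ligases were near control, at log2 0.19 for SMURF1 and -0.19 for SMURF2. MAP3K7, PPM1A, PMEPA1, LEMD3, USP9X and STRAP lay between -0.41 and -0.19, and CREBBP, PDPK1, ZFYVE9, TRIM33, TAB1, USP11, EP300, TGIF1 and TGIF2 between 0.02 and 0.42.

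The genes that TGF-beta or BMP signalling is known to switch on lay on both sides of control. Of 27 compared, 4 were higher and 2 lower, and the median of 0.22 was -0.01 after GC adjustment. The higher genes were COL1A1, a fibrillar collagen gene (1.42 and 3.33, log2 0.84), LMCD1 (1.61 and 3.21, 0.69), the transcription factor gene RUNX1 (1.304 and 2.61, 0.65) and HEY1, a repressor also driven by Notch (47.4 and 72.9, 0.61). COL1A1 came within 1.5-fold after GC adjustment, at 0.5, and the other 3 stayed past it. The lower genes were ID4 (5.34 and 2.01, log2 -1.08) and JUNB (6.37 and 3.81, -0.61). The 4 ID genes, inhibitors of basic helix-loop-helix factors and direct BMP targets, split: ID1 stood at 2.19 and 3.6, ID2 at 95.7 and 70.8, and ID3 at 40.1 and 48.5. Their log2 ratios were 0.53, -0.43 and 0.27, beside -1.08 for ID4, and the limits of all 4 overlapped.

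CTGF (CCN2), a frequent reporter of TGF-beta signalling, did not reach the filter, with FPKMs of 0.866 and 0.719. TGFBI, THBS1, LTBP2, ATOH8 and SNAI1 were also below it. CYR61 (CCN1), KLF10, SNAI2, TSC22D1 and CDKN2B lay between log2 -0.42 and -0.16. FN1, BHLHE40 and TAGLN were between -0.04 and 0.04, and MYC, CDKN1A, VEGFA, HES1, KLF11, GADD45B, ITGB5, MSX1, MSX2 and SPHK1 between 0.1 and 0.55.

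**Figure D2:**
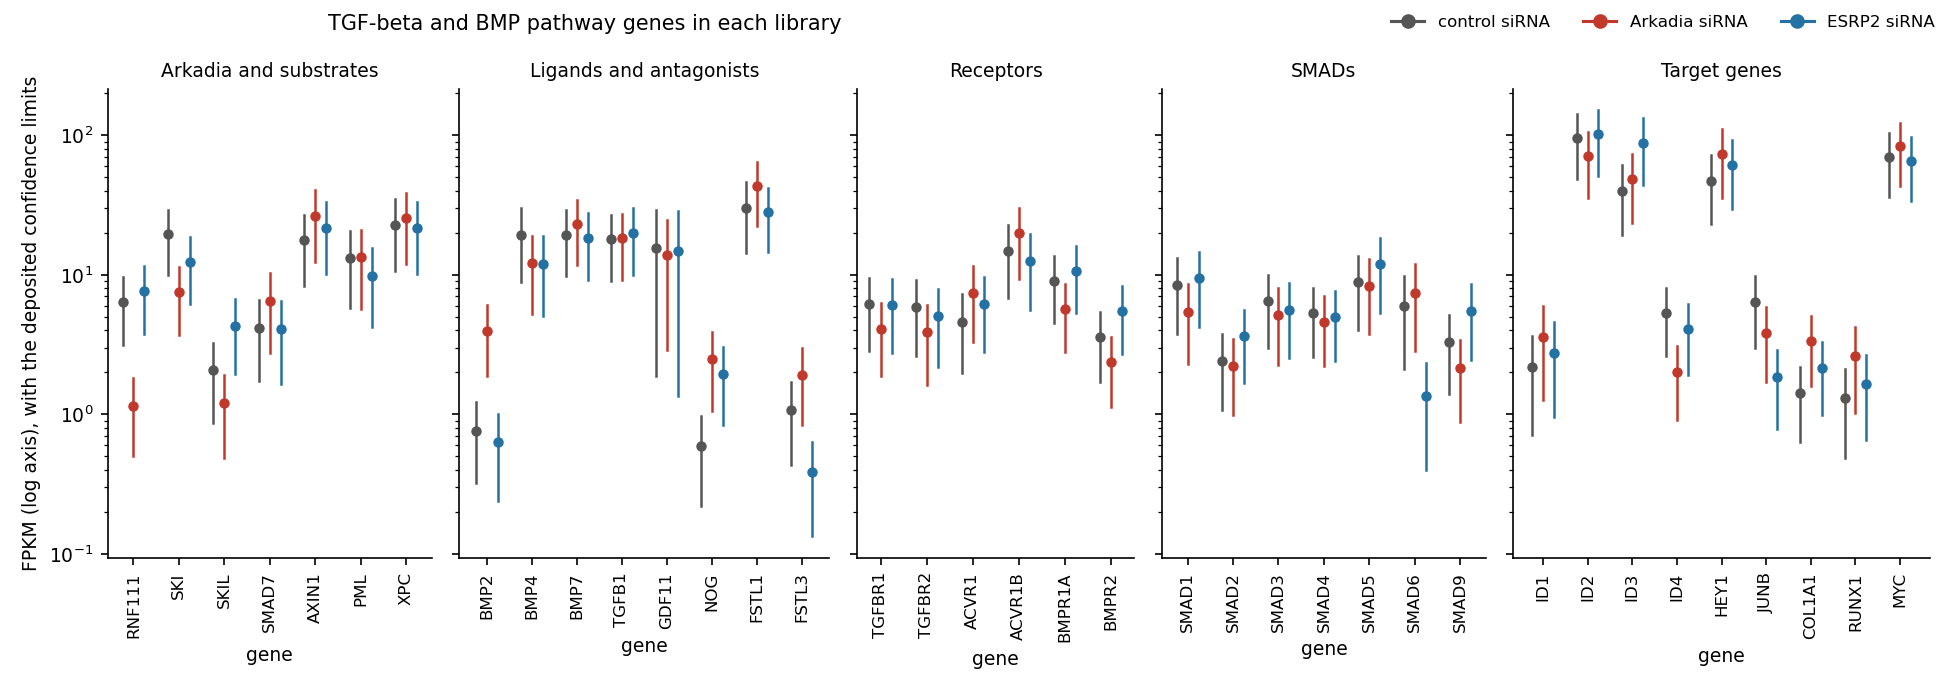
FPKM on a log axis for genes of the TGF-beta and BMP pathway, with points for the control (grey), Arkadia (red) and ESRP2 (blue) siRNA libraries and vertical lines for the deposited confidence limits; each group is 1 library. RNF111 is low and BMP2 high in the Arkadia siRNA library alone, while the lines of the control and Arkadia siRNA libraries overlap for the receptors, SMADs and target genes drawn.

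Splicing was read from the deposited FPKM of each annotated isoform, first in genes reported to be spliced by ESRPs. Of 40 such genes 38 were compared at gene level, with 2 higher, 5 lower and a median of -0.1. FGFR3 (10.4 and 24.1, log2 1.14) and SCRIB (17.4 and 31.3, 0.81) were the higher genes. PLEKHA1 (-1.0), MACF1 (-0.92), UAP1 (-0.7), OSBPL3 (-0.67) and SLK (-0.6) were the lower ones. After GC adjustment FGFR3 (0.81) and MACF1 (-0.87) stayed past 1.5-fold and the other 5 did not. For exons, 52 single internal coding exons separate annotated isoforms of these genes, and 32 of them in 19 genes could be read with isoforms holding at least 90% of the gene's FPKM in both the control and the Arkadia siRNA library. A share under ESRP2 siRNA is given only where the isoforms also held 90% there. The share of FPKM in isoforms with the exon was at least 10 percentage points lower under Arkadia siRNA for 7 exons, at least 10 points higher for 6 and within 10 points for 19. That 90% minimum and the 10-point step were chosen after the values were seen. Exons of 1 gene share isoforms and are not independent, and such shares carry the full error of isoform assignment from short reads.

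The 4 exons below are among those with the largest differences and are described after their sequences, and each is shown with 12 bases of the flanking exons. Capitals mark the alternative exon and lower case its neighbours, read 5′ to 3′ on the transcribed strand from GENCODE 29 transcripts, with the exon's GRCh38 position. The authors' own table uses hg19.
ENAH exon, chr1:225504991-225505053, minus strand: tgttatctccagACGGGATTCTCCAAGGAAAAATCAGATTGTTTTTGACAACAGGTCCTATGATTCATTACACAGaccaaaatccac
ARHGEF11 exon, chr1:156971697-156971816, minus strand: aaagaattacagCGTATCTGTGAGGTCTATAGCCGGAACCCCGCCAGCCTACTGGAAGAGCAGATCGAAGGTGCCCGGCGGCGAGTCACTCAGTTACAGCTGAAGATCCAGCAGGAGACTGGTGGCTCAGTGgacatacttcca
SPAG9 exon, chr17:51031681-51031722, minus strand: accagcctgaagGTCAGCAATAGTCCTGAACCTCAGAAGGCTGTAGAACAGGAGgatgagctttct
LSR exon, chr19:35261925-35261981, plus strand: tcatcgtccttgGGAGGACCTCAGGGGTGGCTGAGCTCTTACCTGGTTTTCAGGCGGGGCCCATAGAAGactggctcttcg

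The ENAH exon of 63 nt lies in the gene for Mena, an actin filament elongator, and its inclusion is a widely used marker of epithelial splicing. Isoforms with it held 29.3% of ENAH FPKM under control siRNA, 8.78% under Arkadia siRNA and 3.96% under ESRP2 siRNA. In FPKM the form with the exon went from 5.12 to 1.19, while the form without it was 12.4 in both. The difference thus lay in the epithelial form. The 120-nt exon of ARHGEF11, a RhoA exchange factor, was at 71.7% under control siRNA, 46.9% under Arkadia siRNA and 21.5% under ESRP2 siRNA, and here the form without the exon was higher (2.36 against 4.12) and the form with it lower (5.97 against 3.63). A 75-nt exon of SCRIB, a cell polarity scaffold, was at 30.7% and 5.701%, and near 0 under ESRP2 siRNA. The 267-nt exon of the receptor gene FGFR1, which encodes its outermost immunoglobulin domain, was at 67.2%, 50.7% and 39.04% in the same order. In these 4 genes the Arkadia siRNA library lay between control and ESRP2 siRNA. In a pair of other lower exons it did not: a 6-nt exon of GIT2, which encodes a regulator of ARF GTPases, was at 31.99%, 4.51% and 30.9%, and the 33-nt exon of NUMB, the Notch inhibitor, at 37.2%, 25.9% and 28%. The last of the 7, the 54-nt exon of MBNL1, a splicing regulator, was at 65.8% under control and 54.8% under Arkadia siRNA. Both siRNA libraries are set against the same control library, so they are not independent.

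Other exons were higher. The 42-nt exon of SPAG9, a scaffold for JNK signalling and motor proteins, had the largest difference of the 32 exons, from 28.6% under control siRNA to 67.5% under Arkadia siRNA, with 29.6% after ESRP2 siRNA. The 57-nt exon of LSR, a lipoprotein receptor of tricellular junctions, was at 7.89% under control and 23.4% under Arkadia siRNA. For SPAG9 the ESRP2 siRNA library stayed near control. The 144-nt exon of NUMB was at 49.2%, 60.4% and, under ESRP2 siRNA, 30.1%. The 69-nt exon of TCF7L2, a Wnt effector, was at 43.3% under control and 53.8% under Arkadia siRNA. The 36-nt exon of MBNL1, whose isoforms are those without its 54-nt exon, was at 34.1% and 45.2% in the same order.

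Several exons differed under ESRP2 siRNA but little under Arkadia siRNA. The 87-nt exon of the transcription factor gene NFYA was at 11.1% under control, 7.197% under Arkadia and 61.6% under ESRP2 siRNA. The 81-nt exon of MAP3K7, the gene for TAK1, was at 9.38%, 6.72% and 31.4%, and the 30-nt exon of CLSTN1 at 2.77%, 1.76% and 17.99%. The 12-nt exon of DNM2, which encodes the membrane fission GTPase dynamin 2, was at 41.7%, 36.3% and 12.98%. The 57-nt exon of RAC1 was rare in all 3 libraries, at most 3.91%.

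**Figure D3:**
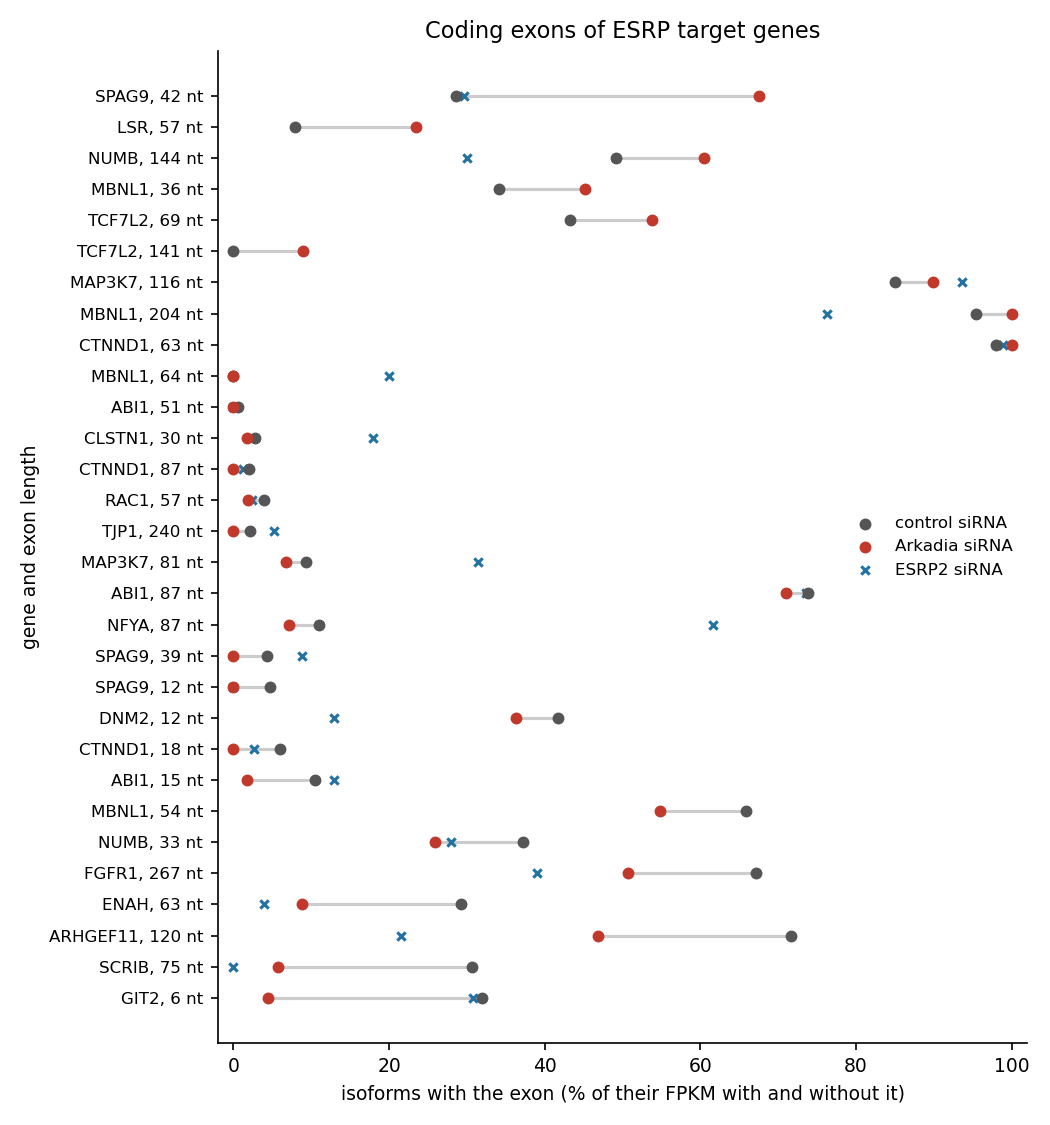
Each row is 1 of 30 of the 32 coding exons of ESRP target genes, and the horizontal axis gives the share of FPKM held by isoforms with the exon in the control (grey), Arkadia (red) and ESRP2 (blue crosses, drawn where the isoforms held 90% of the gene's FPKM there) siRNA libraries. The SPAG9 exon of 42 nt has the widest gap between control and Arkadia siRNA at the top, and those of GIT2, SCRIB, ARHGEF11 and ENAH stand at the bottom with lower shares after Arkadia siRNA.

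Isoform usage was compared in 3590 genes that have 2 or more isoforms and whose isoforms sum to an FPKM of 5 or more in each library, as the part of a gene's FPKM that changed isoform (0 for no change, 1 for a complete switch). A change of at least 0.25 was seen in 628 genes (17.5%), and the median was 0.09. The share was smaller at higher levels, from 22.2% of genes with a lower summed FPKM between 5 and 20, through 13.3% between 20 and 100, to 7.44% at 100 or above. Of the 628 genes, 182 had an isoform whose deposited limits did not overlap. Some of those limits are 0 to 0 and exclude the isoform's own FPKM. The share also rose with the number of isoforms, from 10.7% of genes with 2 isoforms to 24% of those with 3 or more. Among 27 ESRP targets in this comparison 7 passed 0.25 (25.9%), and most of the 7 have 3 or more isoforms. None of the 27 had an isoform with limits apart.

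The 7 were FGFR2 (0.44), TCF7L2 (0.43), CTNND1 (0.42), SPAG9 (0.39), PLEKHA1 (0.32), GIT2 (0.28) and ITGA6 (0.27). In CTNND1, which encodes the cadherin partner p120-catenin, the 6172-nt isoform held 82.8% under control siRNA, 53.2% under Arkadia siRNA and 47.7% under ESRP2 siRNA. In ITGA6, the laminin receptor subunit alpha 6, the 5680-nt isoform held 63.2% under control and 89.8% under Arkadia siRNA, and the 5810-nt isoform the rest. With ESRP2 siRNA the 5680-nt form was lower, at 45.3%. SCRIB (0.25) and ARHGEF11 (0.25) lay just under the threshold before rounding. LSR, ENAH, FGFR1, DNM2, FGFR3, MBNL1 and NUMB lay between 0.14 and 0.23, and ABI1, INF2, MAP3K7, EXOC7, MPRIP, NFYA, TJP1, RAC1 and CLSTN1 between 0.01 and 0.09.

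Genes of the Arkadia and TGF-beta lists with such changes included XPC and TGIF1. In XPC the 3720-nt coding isoform had an FPKM of 19.2 under control siRNA and 7.13 under Arkadia siRNA. A 3596-nt isoform with a non-coding RefSeq identifier was near 0 in control and at 18.2 under Arkadia siRNA, where it held 71.8% of the gene, against 0.2796% under ESRP2 siRNA. The limits of the non-coding form did not overlap, but those in control were 0 to 0 and exclude its own value. Those of the coding isoform overlapped (8.13 to 30.2 under control and 0.262 to 14.1 under Arkadia siRNA). The XPC total was nearly equal. In TGIF1, a homeobox repressor of SMAD transcription, the 1603-nt isoform went from 1.56 to 9.46 and the 1354-nt isoform from 3.73 to nearly 0, both with limits apart. For the 1354-nt isoform the limits under Arkadia siRNA were 0 to 0. The TGIF1 isoforms have different annotated start sites. AP2A2 (0.56), LTBP4 (0.5), SMAD5 (0.44), PML (0.33), TGFBR3 (0.3), LTBP3 (0.29) and LTBP1 (0.28) also passed the threshold.

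The 12 largest changes whose leading isoforms are each at least 300 nt included those in FANCL, PACSIN3, ABCA2, SLC4A11, PHF1, TGFBRAP1, SLC25A14, MYADM, PARN, DCTD and SRI, from 1.0 down to 0.8. In 11 of the 12 the leading isoforms differed in length by at most 30 nt, compared with 18.9% of the 628 genes and 15.1% of the 3590. In TGFBRAP1, whose product binds TGF-beta receptors, the 2964-nt isoform went from 9.75 to 0.0972 and the 2967-nt isoform from 0.265 to 13. FANCL, a Fanconi anaemia ubiquitin ligase gene, switched between isoforms of 1717 and 1732 nt, and its ESRP2 siRNA library held 48.97% and 51.03%. The part of assignment between such similar isoforms in these switches was not tested.

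At gene level, 15 of the 23 genes 2-fold higher with limits apart reached an FPKM of 5 in the higher library. C1orf53, an uncharacterised gene, had the highest log2 ratio of the 23 (2.11), at 1.44 under control, 9.58 under Arkadia and 3.55 under ESRP2 siRNA. In fragments this is at most about 12 under control and 60 under Arkadia siRNA, from the full length of a transcript of 683 nt. Without the added 1, CDRT4 (12.7-fold) and JMJD7-PLA2G4B (8.57-fold) differed more than C1orf53 (6.64-fold). MIF, a cytokine with tautomerase activity, stood at 1122 under control, 3947 under Arkadia and 1115 under ESRP2 siRNA. UBL5, a ubiquitin-like splicing factor, stood at 173, 653 and 173. For both, the control and ESRP2 siRNA libraries were nearly equal and the Arkadia siRNA library was high. The same held for the ribosomal protein gene RPS19 (526, 1802 and 513), the uncharacterised FLJ42875 (1.23, 6.99 and 1.09) and the hyaluronan-binding gene HAPLN3 (6.17, 19.7 and 5.68).

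In other higher genes the ESRP2 siRNA library stood above control too, and in some further than the Arkadia siRNA library. TMEM126A, a mitochondrial assembly factor for complex I, was at 22.8, 84.4 and 429 in the order control, Arkadia and ESRP2 siRNA. RHEB, the GTPase that activates mTORC1, was at 28.6, 94.4 and 139, and FCF1, which acts in processing of the small ribosomal subunit RNA, at 7.33, 23.8 and 52.3. RPL28 (759, 2941 and 1139.97), the guanylate kinase gene GUK1 (216, 687 and 299.99) and the fatty acid oxidation gene ECH1 (82.8, 246 and 136) were highest under Arkadia siRNA. POP7, a subunit of RNase P (47.1, 166 and 25.5), and GALK1, galactokinase (21, 69.4 and 14.3), were high under Arkadia siRNA and not above control under ESRP2 siRNA. For both, the limits of the control and ESRP2 siRNA libraries overlapped, and GALK1 was within 1.5-fold there. The 8 higher genes below an FPKM of 5 were JMJD7-PLA2G4B, CDRT4, BMP2, CPT1C, TEKT2, MMP17, NOG and PLK5, with log2 ratios from 1.11 to 1.65. Of these, JMJD7-PLA2G4B, BMP2, MMP17 and PLK5 averaged below an FPKM of 1 in the other libraries. They thus passed the level filter only through the Arkadia siRNA library.

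On the lower side 20 of 29 genes reached an FPKM of 5 in control. C3orf14 stood at 42.2 under control, 7.98 under Arkadia and 53.8 under ESRP2 siRNA (log2 -2.27). GLO1, glyoxalase I, which detoxifies methylglyoxal, was at 267, 77.1 and 472, and PTGES3, the HSP90 co-chaperone p23, at 345, 125 and 382. In these 3 genes the Arkadia siRNA library alone was low. It was also alone in being low for the disulfide isomerase gene TMX3 (7.79, 1.604 and 14.3), the Golgi gene GOLPH3L (19.4, 5.599 and 25.8), the ubiquitin-like modifier UFM1 (17.1, 5.09 and 25.9), HDHD2 (10.1, 2.85 and 19.6) and FNDC3A (11.3, 3.27 and 15.98). PM20D2, LOC647979, KRCC1 and AASS, the last encoding the first enzyme of lysine breakdown, had log2 ratios from -1.52 to -1.41.

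ETNK2, ethanolamine kinase 2, was at 23.2, 5.67 and 11.6 in the order control, Arkadia and ESRP2 siRNA, and B4GALT6, lactosylceramide synthase, at 7.07, 1.69 and 3.02. Both siRNA libraries were below control there. EIF5AL1 (20.1, 4.83 and 11.3) is nearly identical to EIF5A and CDR1 (34.7, 10.1 and 27.4) lies on the strand opposite a circular RNA, so reads assigned to either are uncertain. RPL21 was listed at 174 under control and 0.0514 under Arkadia siRNA, where its limits of 0 to 0 exclude its own value. The gene has many near-identical pseudogenes, and the value is not read as a difference, although the gene is counted among the 29. Of the 9 lower genes below an FPKM of 5, the histone H4 genes HIST1H4A and HIST1H4C had 4.05 and 2.04 under control siRNA, and the Arkadia siRNA library lists both at 0. Their limits there are 0 to 0, and the control values stand for at most about 19 and 10 fragments, from the full length of these short transcripts. SUZ12P, SCG3, LCOR, LOC400550, ARHGAP24, the nuclear long non-coding RNA MALAT1 (3.0 and 0.845) and HPGD had log2 ratios from -1.77 to -1.04.

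The higher and lower genes differed in composition. The median transcript GC content was 59.5% in the 23 and 41.7% in the 29, against 49.3% in all genes compared. After GC adjustment 19 of the 23 and 23 of the 28 lower genes with a GC value were still past 2-fold. The exceptions were TEKT2, MMP17, NOG and PLK5 among the higher genes, and KRCC1, LCOR, ARHGAP24, MALAT1 and HPGD among the lower ones. Of all 199 genes 2-fold higher 75 stayed past 2-fold, and of the 266 lower 119.

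**Figure D4:**
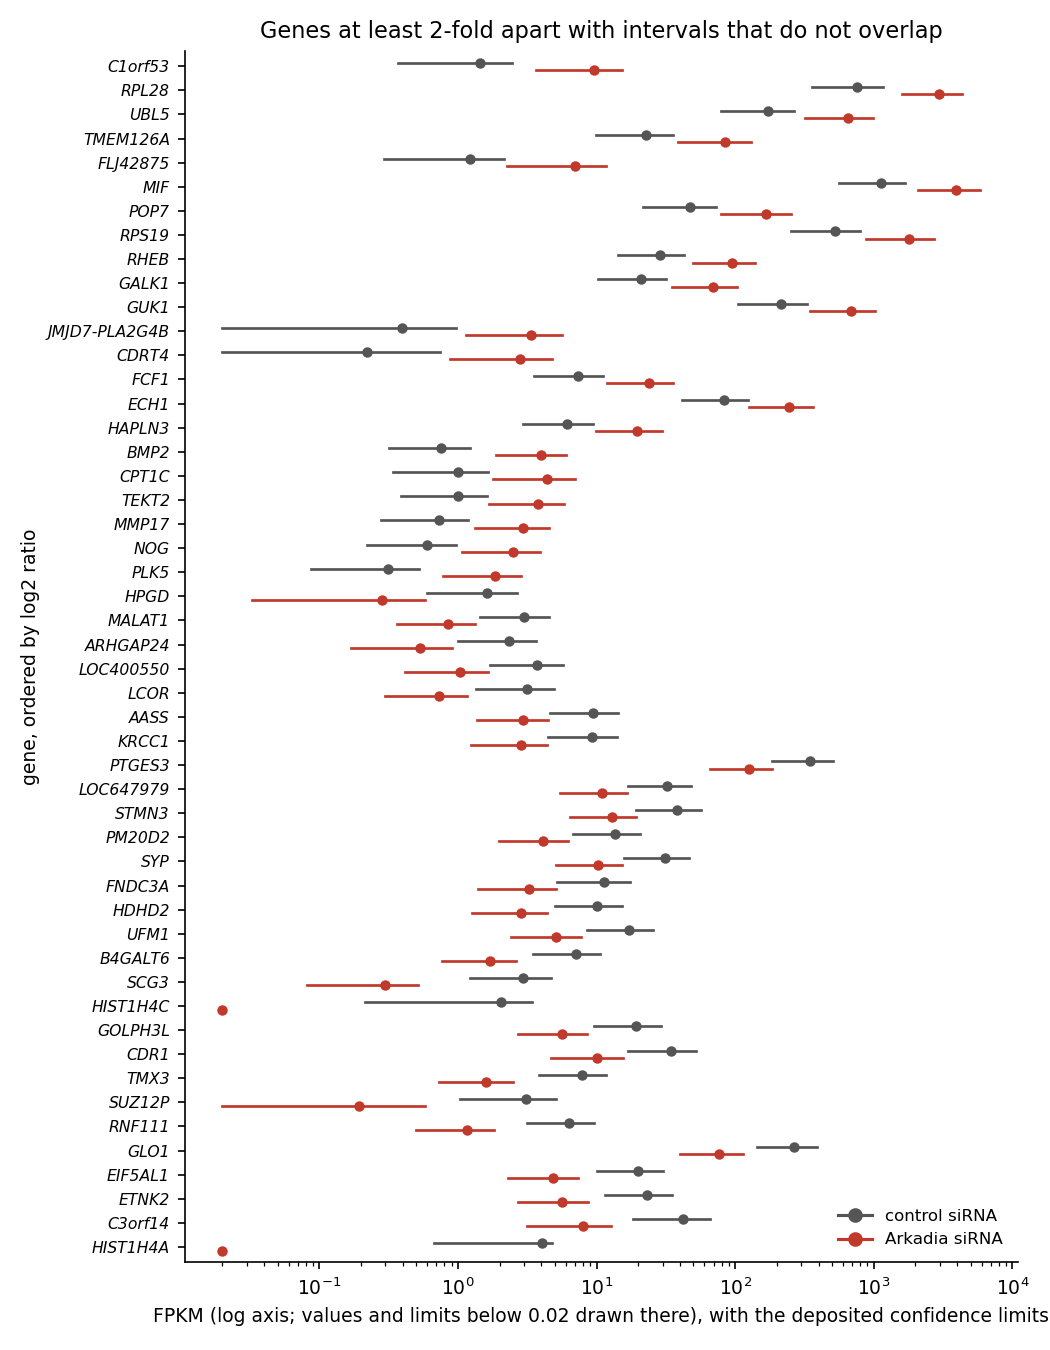
FPKM on a log axis with the deposited confidence limits in the control (grey) and Arkadia (red) siRNA libraries for 50 of the 52 genes past 2-fold whose limits do not overlap (RPL21 and 1 other gene are left out). Genes are ordered by log2 ratio from C1orf53 at the top to HIST1H4A at the bottom, and values or limits below 0.02 are drawn at 0.02.

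Genes of the cytosolic ribosome stood above control on balance. Of 47 large-subunit genes 14 were higher and 3 lower at 1.5-fold, against 9.81% and 11.8% of all genes compared. The median was 0.32. Of 31 small-subunit genes 9 were higher and 4 lower, with a median of 0.36. GC adjustment left these at 0.28 and 0.31, and the same subtraction by transcript length at 0.165 and 0.206. Beside RPL28 and RPS19, RPL31 (2130.1 and 5253), RPL23 (2287 and 5254), FAU (1073 and 2620.3) and RPS12 (807 and 1846) had log2 ratios of 1.3, 1.2, 1.29 and 1.19. RPS27, RPL41, RPL10, RPL35, RPS15A and RPS3 lay between 0.96 and 1.11. The 3 lower large-subunit genes include RPL21, whose value is not read as a difference. The other lower genes of both subunits were RPS29 (2907 and 1490.3), RPS23, RPL17, RPS21, RPS18 and RPL38, from -0.96 to -0.6. Many of these genes have pseudogene copies, so single values are uncertain, and limits did not overlap for RPL28, RPL21 and RPS19 only.

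Genes of the mitochondrial ribosome and of complex I leaned higher by count, and those of the other respiratory complexes did not. Of 76 mitochondrial ribosomal protein genes 20 were higher and 8 lower, with a median of 0.17 (0.27 GC-adjusted and 0.0926 adjusted for length). MRPL14 (98.3 and 295), MRPL46 (54.2 and 148) and MRPL54 (24.4 and 63.9) led the higher genes, followed by MRPL4, MRPS34 and MRPS11. MRPL41 (191 and 92.1) and MRPL1 (25.2 and 13.03) were the lowest, before MRPL13, MRPS18C, MRPL42 and MRPL19. In complex I, the NADH dehydrogenase, 10 of 38 genes were higher and 4 lower (median 0.21, 0.2 GC-adjusted and 0.107 adjusted for length). NDUFS8 (114 and 313) and NDUFA7 (47.1 and 118) were the highest, and NDUFA5 (32.7 and 12.2) the lowest. In complexes II to V with cytochrome c, 5 of 41 were higher and 5 lower (12.2% each), with a median of 0.18 that length adjustment took to 0.0241. ATP5I stood at 148 and 393 and UQCRB at 92.9 and 38.9.

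Proteasome subunit genes had 5 higher (14.7%) and 1 lower (2.94%) of 34, against 9.81% and 11.8% of all genes compared. Their median was 0.24 (0.26 GC-adjusted and 0.114 adjusted for length). The higher ones were PSMB4 (435 and 805), PSMD8, PSMD9, PSMA3 and PSMB6, at log2 0.59 to 0.89, and the lower one PSMA4 (354 and 221). The 22 aminoacyl-tRNA synthetase genes had a median of 0.19, with none past 1.5-fold. Translation factor genes were not above control on balance, with 4 higher and 7 lower of 67 and a median of -0.03. Among them EEF1A2 was at 56.5 and 116, and EIF3J at 24.6 and 13.9. Beside POP7, 1 other of the 10 RNase P and MRP genes was higher, RPP25 (14.3 and 22.5).

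Genes of DNA replication were lower on balance. Of 45 compared 10 were lower (22.2%) and 1 higher (2.22%), against 11.8% and 9.81% of all genes compared. The median was -0.2 (-0.18 GC-adjusted). The DNA polymerase alpha genes POLA1 (20.9 and 11.6) and POLA2 (63.9 and 36.5) and their primase partner PRIM1 (58.2 and 33.5) were all past 1.5-fold lower. So were POLE2 (-0.8) and the ribonucleotide reductase gene RRM1 (-0.77). After GC adjustment POLA2 (-0.93) stayed past 1.5-fold, and POLA1, PRIM1, POLE2 and RRM1 lay between -0.57 and -0.44. The thymidine kinase gene TK1 was the exception at 36 and 85.2 (log2 1.22). Of 40 mitosis genes 5 were lower (12.5%, near the share of all genes) and 1 higher (2.5%), with a median of -0.12 (GC-adjusted -0.02). CKS2, a subunit of cyclin-dependent kinases, stood at 336 and 151, the checkpoint gene MAD2L1 at 179 and 97.1, and CDC20, the higher one, at 115 and 210.1. KIF11, TPX2 and CENPE were the other lower genes.

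Replication-dependent histone genes were also lower: 11 of 25 compared were lower (44%) and 3 higher (12%), against 11.8% and 9.81% of all genes. Their median was -0.29, which GC adjustment took to -0.53 and length adjustment to -0.444. Most mRNAs of this class end in a stem-loop and lack a poly(A) tail, so poly(A) selection captures few of them, and 48 of the 73 listed did not pass the filter. HIST1H1E (4.5 and 1.05), HIST1H2AD (2.91 and 0.931), HIST1H1D (2.42 and 0.713) and HIST1H2AC (8.06 and 3.86) followed HIST1H4A and HIST1H4C. HIST1H2BK, by far the most abundant, was at 126 and 103, within 1.5-fold. The higher genes HIST1H4E, HIST3H2BB and HIST1H4D were all below an FPKM of 3, and HIST1H4D was listed at 0 in control.

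Neuronal and secretory granule genes, which HEK293 cells express to a degree, had the lowest median of the lists with at least 10 genes compared. This list, like the others, was chosen with earlier results of these data known, so its rank and its share of lower genes may follow from that choice. Of 21 compared 8 were lower (38.1%, against 11.8% of all genes), 0 were higher and 3 had a ratio above 0. The median of -0.42 was -0.7 after GC adjustment (median GC content 54%). SYP, the synaptic vesicle protein synaptophysin, stood at 31.2 under control, 10.3 under Arkadia and 6.51 under ESRP2 siRNA. STMN3, a microtubule regulator, stood at 37.9, 12.8 and 13.5, and SCG3, a secretogranin, at 2.94, 0.297 and 0.599. For these 3 both siRNA libraries were below control, and the limits of control and Arkadia siRNA did not overlap. The siRNA libraries share 1 control library, so they are not independent. AP3B2 (5.03, 1.904 and 0.617), the neuronal tubulin gene TUBB3 (14.7, 6.87 and 5.24) and CPLX1 (6.102, 3.44 and 1.11) were also below control in both siRNA libraries. ELAVL2 was low under Arkadia siRNA only (6.42, 2.25 and 7.86). INA, a neuronal intermediate filament, was at 32.3 and 18.02, while its relative NEFL was level at 30.9 and 30.4 and GAD1 stood above control at 9.77 and 13.7.

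Markers of cell identity were measured as a check of the label. Of 8 HEK293 markers 7 passed the filter, with summed FPKMs of 569 under control, 603 under Arkadia and 494 under ESRP2 siRNA. Only LIN28B, an RNA-binding regulator of let-7, was past 1.5-fold (18.2 and 7.76, log2 -1.13, GC-adjusted -0.67). None of 17 markers of blood, endothelial, fibroblast, keratinocyte, liver or muscle cells passed, and all 17 summed to 2.87, 2.28 and 0.977 in the same order. HBB was listed at 0 in all 3 libraries, and PECAM1 and DCN at 0 under Arkadia siRNA. Of 15 epithelial genes compared none was past 1.5-fold, and CDH1 stood at 1.16 and 1.16. Of 28 mesenchymal and matrix genes 3 were higher (TIMP1, COL1A1 and COL5A1) and 3 lower (S100A4, LOX and CALD1), with a median of -0.01.

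In nucleotide excision repair, where Arkadia acts on XPC, 5 of 29 genes were higher and 6 lower, with a median of -0.18 (-0.06 GC-adjusted). The higher ones included XAB2 (19.5 and 39.2), GTF2H4, ERCC5 and ERCC2. The lower ones were ERCC8 (9.23 and 4.68), MNAT1, GTF2H3, ERCC4, PCNA and RPA3, and all 6 lay within 1.5-fold after GC adjustment, as did GTF2H4 and ERCC2. Targets of p53, whose protein the T antigen of this line binds, had 2 higher and 4 lower of 25 (median -0.23). The pro-apoptotic gene BAX (164 and 358) and TP53I3 were higher. AEN (169 and 76.8), RRM2B, MDM2 (8.33 and 3.798) and FAS were lower, so known p53 targets lay on both sides.

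Stress response genes were mixed. Of 35 genes that respond to unfolded proteins or lack of amino acids 3 were higher and 8 lower. SDF2L1 (177 and 80.8), PSAT1 (200.3 and 108), SLC7A11, DNAJB11, DNAJB9 and the response's transcription factor XBP1 (149 and 91.3) were the lowest, and PHGDH, VLDLR and PDIA4 were higher. PHGDH (192 and 319) and PSAT1 encode consecutive enzymes of serine synthesis and differed in opposite directions. Of 25 chaperone genes 4 were higher (CDC37, AHSA1, HSF1 and STIP1) and 2 lower (PTGES3 and CCT2). CDC37, AHSA1, STIP1 and PTGES3 all encode HSP90 co-chaperones. Of 47 glutathione and redox genes 10 were higher and 7 lower, with a median of 0.03. The heme oxygenase gene HMOX1 (4.17 and 9.68), MGST3, GSS, GSTZ1, HAGH and GPX4 were the highest. HAGH, glyoxalase II, acts on the product of GLO1 and was at 26.4 and 45.04. After GLO1 and TMX3 the lowest were thioredoxin, TXN (522 and 236), TMX1, GSTP1 and GLRX2.

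Hypoxia and glycolysis genes had 7 higher (19.4%) and 0 lower of 36, against 9.81% and 11.8% of all genes compared. Their median was 0.22 (0.2 GC-adjusted). The lactate dehydrogenase gene LDHB stood at 451 under control, 965 under Arkadia and 1694 under ESRP2 siRNA, NDRG1 at 44.2, 94.1 and 56.2, and the hexokinase gene HK2 at 11.3, 20.2 and 25.9. In these 3 both siRNA libraries were above control. PFKL, SLC2A3, TPI1 and EPAS1 followed, with log2 ratios of 0.7, 0.65, 0.63 and 0.59. Of 32 lipid synthesis genes 4 were higher (TM7SF2, NSDHL, LSS and SCAP) and INSIG1, which retains SCAP in the endoplasmic reticulum, was lower (90.98 and 57.3).

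In the ubiquitin system, E2 enzyme genes leaned lower, with 8 lower (22.2%) and 4 higher (11.1%) of 36. Over all genes compared these shares were 11.8% and 9.81%. The E2 median was -0.25 (-0.16 GC-adjusted). UBE2Q2 (11.7 and 4.03) and UBE2B (14 and 6.55) were the lowest, and UBE2N, UBE2K, UBE2V2 and UBE2Z followed. UBE2L6, CDC34 (66.8 and 117), UBE2L3 and UBE2M were higher. Of 62 RNF genes 11 were lower (17.7%) and 3 higher (4.84%), with a median of 0.00. RNF111 had the lowest ratio of the family and was the one whose limits did not overlap. RNF219 came next (33.8 and 13.3, log2 -1.28), then RNF130, RNF19A, RNF125 and RNF141, while RNF215, RNF166 and RNF31 were higher. Among 27 modifier genes, UBL5, FAU, URM1 and MAP1LC3B were higher and UFM1 and ATG12 lower.

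RAB GTPase genes, which direct vesicle traffic, had 10 lower (20.4%) and 2 higher (4.08%) of 49, with a median of -0.07 (-0.04 GC-adjusted). Their median GC content was 45.4%, against 49.3% in all genes compared, and the part of GC content in these counts was not tested. Over all genes compared the shares were 11.8% and 9.81%. RAB3C (8.32 and 3.18) and RAB39A (4.55 and 1.69) were the lowest, then RAB1A, RAB11A, RAB27A and RAB23, and RAB13 and RAB4B were higher. Splicing regulators had 6 lower (11.1%) and 2 higher (3.7%) of 54 (median -0.14). HNRNPH2 (72.4 and 31.7), QKI (13.7 and 6.39), TIA1 (14.4 and 6.79), HNRNPA2B1, HNRNPU and RBFOX2 were lower, and RBM4 (63.6 and 128) and HNRNPL were higher. After GC adjustment HNRNPH2 (-0.94), RBFOX2 (-0.63), RBM4 (1.23) and HNRNPL (0.65) stayed past 1.5-fold.

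Kinesin genes were at 4 higher (KIF1A, KIF22, KIFC3 and KIF9) and 6 lower (KIF15, KIF11, KIF20B, KIF5C, KIF4A and KIF2A) of 33. These are 12.1% and 18.2%, against 9.81% and 11.8% of all genes compared. Actin cytoskeleton genes had 6 higher and 4 lower of 34 (median 0.14). The subunits of the capping protein differed in direction, with CAPZB at 172 and 434 and the alpha subunits CAPZA2 at 42.6 and 20.1 and CAPZA1 at 66.5 and 41.8. ARPC1B, ACTB, TMSB10, PFN1 and ACTN4 were higher, and DSTN and CFL2 lower. In the mTORC1 pathway RHEB, LAMTOR2 (41.3 and 103), ULK1 and TFEB were higher, and RRAGD, EIF4EBP2 and LAMTOR3 lower, of 28 compared. The median of 0.18 was -0.05 after GC adjustment.

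In the Wnt pathway 4 of 34 genes were higher and 1 lower. The receptor gene FZD8 stood at 3.86 under control, 11.4 under Arkadia and 1.997 under ESRP2 siRNA (log2 1.35), and FZD2 at 3.21, 6.89 and 2.62. LRP5 and GSK3A were the other higher genes and the transcription factor gene LEF1 the lower one (17.4 and 10.8). Interferon response genes had 1 higher (IRF3) and 1 lower (EIF2AK2) of 14, and immediate early genes 0 higher and 1 lower (JUNB) of 20. Of 359 ZNF genes 18 were higher (5.01%) and 29 lower (8.08%), against 9.81% and 11.8% of all genes compared. ZNF226 (6.89 and 17.1) had the highest ratio and ZNF724P (2.32 and 0.279) the lowest. Of 16 snoRNA host genes RPL7A and SNHG7 were higher. Of 15 housekeeping genes 2 were higher, among them ACTB (933 and 1670.4), and 0 lower, and the median was 0.06.

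**Figure D5:**
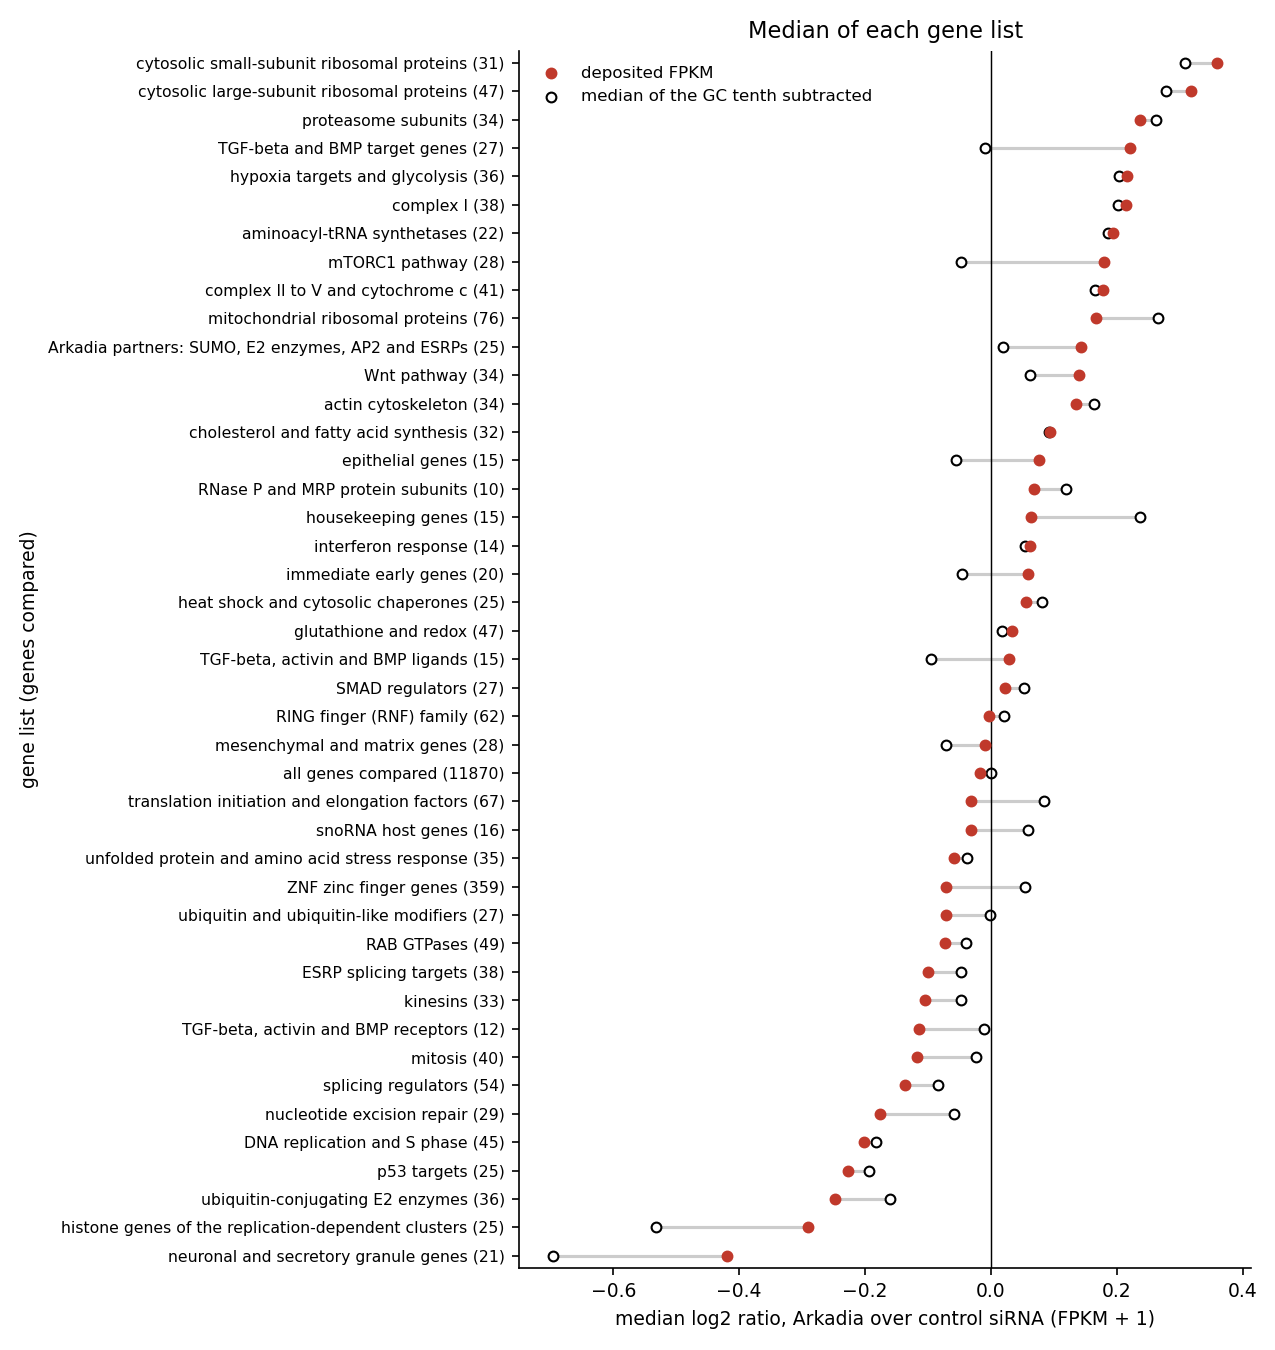
Median log2 ratio of Arkadia over control siRNA for each gene list with at least 10 genes compared (number in brackets), from the deposited FPKM (red) and after subtracting the median of each gene's GC decile (open circles). Ribosomal protein lists are at the top and neuronal and histone lists at the bottom on both scales, while the list of TGF-beta and BMP targets moves from 0.22 to -0.01. The lists were chosen with earlier results of these data known, so the order may follow from that choice.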

How the data were processed

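The 3 libraries of poly(A) RNA were sequenced on an Ion Proton chip, per the labels' protocols. The submitters' processing notes name TopHat2 2.0.10, Bowtie2 2.1.0, Cufflinks 2.1.1, Cuffdiff and the build hg19, with no roles or parameters. The authors deposited FPKM per gene and per isoform with lower and upper confidence limits, whose level is not given in the sources used here. From these values the log2 ratio of FPKM + 1 was computed with Python 3.11.15 and pandas 2.3.3, for genes of status OK with a mean FPKM of at least 1 and an isoform of at least 300 nt. GC content came from RefSeq transcripts, matched for 97.2% of genes by accession and 1.83% by symbol. Shorter genes (105) were left out.

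The steps of 1 read used to estimate depth came out whole within 0.15 reads for at least 99.2% of low values in genes of 3000 nt or longer with 1 isoform. Fragment numbers are such estimates from the full transcript length. They were not checked in shorter transcripts, where they can be too high.

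Genes named are RNF111, genes past 2-fold with limits apart and an FPKM of at least 5 (up to 30 each way), members of the Arkadia, TGF-beta and BMP lists, up to 6 list members each way past 1.5-fold, the 12 largest usage changes and the ESRP targets. Genes with limits apart below an FPKM of 5, and others outside these rules, were named after their values were seen. The members, lists and tests were chosen with earlier results of these data known. Alternatives were the pseudocount, the filters, 2 rescalings, GC and length subtraction and summed isoforms. With 1 library a group no test was run. Some members of these sets are not reported here.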

Additional observations from a re-analysis of the deposited data

How the results depend on the processing

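No paired analysis was possible because each group is 1 library. RNF111 was lower under all alternatives run, with log2 ratios from -2.37 to -0.89, and past 2-fold in each except a pseudocount of 5, which gave the last of these. With a pseudocount of 0.1 in place of 1, 349 genes were 2-fold higher and 512 lower, and with 5 there were 78 and 77, with 632 and 604 at 1.5-fold and 13 and 13 with limits apart. A mean FPKM of at least 5 left 12 and 19 with limits apart. Subtracting GC deciles left 112 higher and 174 lower at 2-fold, 747 and 824 at 1.5-fold, and 11 and 17 with limits apart when the limits were shifted as well, and subtracting length deciles left 15 higher with limits apart. Isoform usage changes numbered 202 with a summed FPKM of at least 20 and 222 at a threshold of 0.4, where fewer genes can pass by construction. The other 50 recomputed totals over all genes stayed within 1.5 times of those reported. Of the recomputed counts within gene lists 898 stayed within 1.5 times and 136 did not. Of the recomputed medians of the 46 lists, 463 stayed within 0.1 of the reported value and 43 did not. Of the recomputed ratios of 168 named genes, 13 left the deposited limits. No named gene past 1.5-fold changed sign. Beyond the genes that a filter or threshold removes, the cause was not tested. Without replicates the spread between cultures is unknown, and the Arkadia siRNA library, the shallowest, sets the precision for weakly expressed genes.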

Other observations

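Short RNAs were left out of the comparison above. Of the 105 members with no isoform of 300 nt or more, 59 are named as small nucleolar or small Cajal body RNAs and 38 as microRNA precursors. Of the 105, 34 were at least 2-fold higher with Arkadia siRNA and 32 at least 2-fold lower. The shares of 1.68% and 2.24% in the genes compared above are not a like background. Some short genes passed the level filter only through the library where they were high, such as MIR548D1 (0, 416 and 0), so a ratio past 2-fold followed from the filter. Equal values also recur: SNORD57, SNORD27 and MIR548W, each of 72 nt, were all at 69.6 in control. Of the 105, 42 were listed at 0 in control and 48 at 0 with Arkadia siRNA. The deposited limits did not overlap for 1, SNHG9. Its FPKM of 10.3 under Arkadia siRNA lies outside its own limits of 0.72 to 6.48.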
